A study of Mus musculus with 6 samples.

Results

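The genes described here are 52 genes of the mitotic apparatus, chosen by symbol from the 24499 rows of a gene count table: markers of proliferation, the spindle assembly checkpoint, mitotic kinases, the chromosomal passenger complex, the kinetochore, spindle-associated proteins, kinesins, condensin, separase with securin, and cytokinesis. All 52 genes were found and all 52 passed the filter on low counts, which kept 13296 genes. RNA-seq had been performed on day 3 YFP+ iGCBs from cKO and control mice, with 3 biological replicates in each group. iGCBs resemble germinal center B cells but are made *in vitro*, from splenic naïve B cells grown with IL-4 on irradiated 40LB cells (BALB/c 3T3 fibroblasts that carry CD40L and BAFF). Both groups carried *Cγ1* Cre and the *Rosa26-YFP* LSL reporter, and cKO mice were in addition *Eif3e* fl/fl, all on a C57BL/6J background. The labels call the cKO genotype an *Eif3e* knockout. *Cγ1*Cre acts in B cells after activation, so that deletion took place in the course of the response, and YFP marks the cells in which Cre had acted. The age of these mice was not given in the sources used here.

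Mitosis divides the replicated chromosomes between the daughter cells. Condensin compacts the chromosomes, the kinetochore ties each centromere to spindle microtubules, the checkpoint holds separase in check until every kinetochore is attached, and the centralspindlin complex then directs the cleavage furrow. Most of these genes are transcribed in the late phases of the cell cycle, and germinal center B cells are among the most rapidly dividing cells of the body. The promoters of such genes often carry a CHR element (cell cycle genes homology region), bound by the DREAM and MYB-MuvB complexes, near the transcription start and a CCAAT box, bound by NF-Y, further upstream.

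The promoters of the 5 members with the largest decreases, and that of *Kif11*, which was higher in cKO, are printed to show these elements. Each runs from 120 bases before to 30 bases after the transcription start, 5′ to 3′ on the strand of the gene, from RefSeq on GRCm38.p6, with the letters of CHR (TTTGAA, or its variant form TTCGAA) and of the CCAAT box in capitals on either strand. Read from the other strand the CHR letters appear as TTCAAA, and those of the CCAAT box appear as ATTGG. *Cenpf* is at chr1:189688057-189688206 (minus strand), *Cenpe* at chr3:135212443-135212592 (plus), *Cenpa* at chr5:30666766-30666915 (plus), *Racgap1* at chr15:99651627-99651776 (minus), *Kif23* at chr9:61946770-61946919 (minus) and *Kif11* at chr19:37376262-37376411 (plus).
Cenpf: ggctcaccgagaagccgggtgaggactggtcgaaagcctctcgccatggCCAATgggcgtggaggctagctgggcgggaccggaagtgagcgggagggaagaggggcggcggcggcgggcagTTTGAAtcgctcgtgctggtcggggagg
Cenpe: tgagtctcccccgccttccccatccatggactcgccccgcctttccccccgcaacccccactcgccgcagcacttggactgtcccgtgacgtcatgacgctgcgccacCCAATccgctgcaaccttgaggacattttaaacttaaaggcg
Cenpa: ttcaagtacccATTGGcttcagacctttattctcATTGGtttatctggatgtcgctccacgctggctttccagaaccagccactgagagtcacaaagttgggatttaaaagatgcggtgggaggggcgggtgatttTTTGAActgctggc
Racgap1: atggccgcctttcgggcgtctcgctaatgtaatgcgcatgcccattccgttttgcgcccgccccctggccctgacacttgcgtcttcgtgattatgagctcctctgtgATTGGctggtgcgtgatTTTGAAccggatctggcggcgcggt
Kif23: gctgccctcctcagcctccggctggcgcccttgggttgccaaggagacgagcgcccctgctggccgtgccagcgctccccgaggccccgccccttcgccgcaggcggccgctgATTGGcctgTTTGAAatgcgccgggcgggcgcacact
Kif11: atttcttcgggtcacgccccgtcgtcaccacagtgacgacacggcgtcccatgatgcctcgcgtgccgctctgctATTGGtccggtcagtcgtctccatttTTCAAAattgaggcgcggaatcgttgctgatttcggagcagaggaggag

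Counting from 1 at the start that RefSeq's promoter window uses, which need not be the end of the gene span (for *Kif2c* and *Pttg1* it lay well inside it), the CHR letters began at position 3 in *Cenpf* and *Kif23*, 6 in *Racgap1*, 17 in *Cenpa* and −19 in *Kif11*, and were not present in the *Cenpe* window. RefSeq windows of 300 bases (250 before to 50 after the start) were at hand for 46 of the 52 members. No window was used for *Kif20a*, *Incenp*, *Smc4*, *Spc24*, *Aurkb* and *Tpx2*. The CHR letters were found in 73.9% of the 46 members and in 21.7% of the 27025 genes with a window. Within 50 bases of the start the shares were 65.2% and 6.12%. CCAAT stood in 71.7% of members and 41.1% of all genes, and both motifs stood in 63.0% and 8.61%. The letters of E2F sites, searched on both strands in the forms TTCGCGC, then also TTGGCGC (which can share letters with the CCAAT box) and lastly TTCCCGC, stood in 23.9% of members and 9.2% of all genes. Of the 28 members with a window that were lower in cKO (below), 78.6% had the CHR letters, and of the other 18 (*Kif11* among them, the rest not past the test) 66.7% had them. The CHR letters with CCAAT stood in 20 of the 28 (71.4%) and 9 of the 18, and the E2F letters in 28.6% and 16.7%. Near the start the CHR letters stood in 64.3% of the 28 and 66.7% of the 18, and anywhere in the window in 66.7% of the 9 members lower by over 1.5-fold, so the split had no steady direction. A letter match describes the sequence and is not evidence of binding.

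The targeted gene was examined first. *Eif3e*, a subunit of the translation initiation factor eIF3, had 424, 401 and 392 CPM (counts scaled by library size, with TMM normalization) in control replicates 1, 2 and 3 and 173, 149.8 and 152 CPM in cKO replicates 1, 2 and 3. The groups were apart in every library, with a log2 fold change of −1.36 (SE 0.066, adjusted p = 6.71e-07 by edgeR's quasi-likelihood test, and p = 0.1 in a two-sided exact permutation test, the smallest that 3 against 3 allows). The counts cover the whole gene and not the deleted exons alone. Library totals were between 39079582 and 45504570 counts. Summed B cell markers were 4431 to 4637 CPM in cKO and 4344 to 4712 CPM in control, and no T cell marker passed the filter. Of the germinal center markers reported here, *Gcsam* (−2.75) and *Bcl6* (−0.32) were lower and *Fas* (0.41) was higher in cKO on the log2 scale. Summed plasma cell markers were 649 to 783 CPM in cKO and 836 to 855 CPM in control. *Irf4*, the largest part in every library, had 489 to 612 CPM in cKO and 372 to 451 CPM in control. Of the 5 plasma cell markers, *Jchain* (−4.00), *Prdm1* (−1.13) and *Xbp1* (−1.10) were lower and *Sdc1* (1.597) and *Irf4* (0.42) were higher on the log2 scale. Summed myeloid markers were 4.09 to 6.08 CPM and 1.22 to 2.47 CPM, of which *Adgre1* made up most and was the only 1 called (1.96), while *Itgam* did not pass (−1.08), *Lyz2* and *Csf1r* were under the filter and *Cd14* and *S100a8* had 0 counts. The part of these markers in the members' values was not tested. *Xist* was high in cKO replicate 2 and control replicates 1 and 2, with 53272 to 70912 counts, and at most 16 counts in the other libraries, so the groups were not balanced for it.

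A majority of the mitotic genes were lower in cKO iGCBs, by moderate amounts. Of the 52 genes, 32 were lower and 2, *Smc4* and *Kif11*, were higher at an adjusted p under 0.05 in edgeR's quasi-likelihood test, and 18 did not pass. Among all 13296 genes tested, 24.5% were lower and 24.1% were higher, 48.6% in all. The members' shares were 61.5% lower and 3.85% higher. Beyond 1.5-fold, 10 members (19.2%) were lower and 0 were higher, against a background of 10.6% lower and 10.4% higher. The median log2 fold change was −0.32 over the members and −0.004 over all genes, and 44 of the 52 estimates were negative. When the change itself was tested against 1.5-fold (edgeR glmTreat), 4 members were lower, *Cenpf*, *Cenpe*, *Cenpa* and *Racgap1*, against 4.36% of all genes. In this bulk RNA, fewer cells in mitosis and less mitotic RNA per cell cannot be told apart.

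The 3 cKO libraries lay below the 3 control libraries for 33 members and above them for 3, with 16 overlapping. Over all genes these shares were 29.5% below and 29.2% above. The members' CPM summed to 6700, 6496 and 6699 in cKO replicates 1, 2 and 3 and to 8284, 8347 and 7737 in control replicates 1, 2 and 3. Control replicate 3 was the lowest control library for 38 of 52 members, and cKO replicate 2 was the lowest cKO library for 29. Control replicate 3 also had the lowest sum of fibroblast feeder markers, 56.4 CPM against 94.4 to 114 CPM in the other libraries. Of these 12 markers, 9 passed the filter, *Lum* and *Postn* had 0 counts throughout, 0 were lower in cKO and 2 (*Fn1* and *Col5a1*) were higher. The part of the feeder markers in the members' values was not tested. Without control replicate 3, 33 members were lower and 1 was higher, and the median was −0.36. With *Xist* level as a factor in the fit, 29 were lower and 2 higher. Among the *Xist*-high libraries (1 cKO, 2 control) the cKO library was below both controls for 45 of 52 members, and among the *Xist*-low libraries (2 cKO, 1 control) both cKO libraries were below the control for 35. Over all genes these shares were 43.5% and 42.3%. The members' median difference in mean log2 CPM (cKO minus control) was −0.35 among the *Xist*-high libraries and −0.17 among the *Xist*-low libraries, against 2e-04 and 0.0012 over all genes. The difference between these medians was not tested. cKO was lower in both strata for 67.3% of members and 33.4% of all genes.

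**Figure D1:**
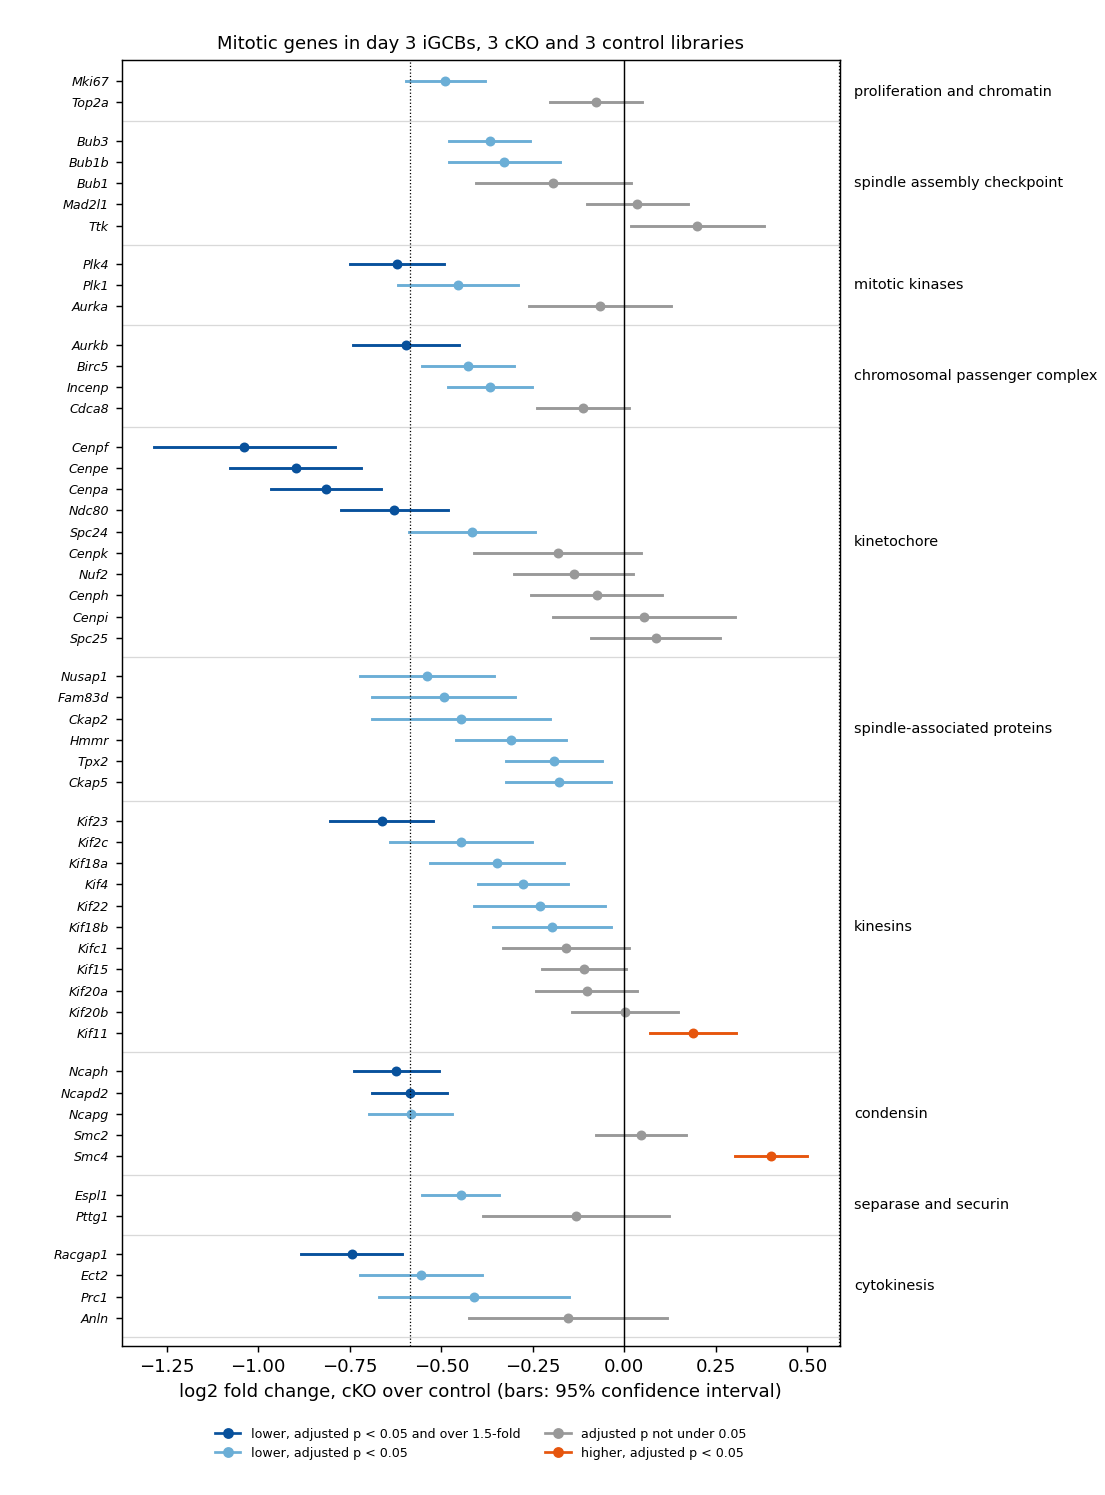
Log2 fold change of each of the 52 members, cKO over control, with its 95% confidence interval from edgeR, by functional group. Dotted lines mark 1.5-fold. Values run from −1.04 (*Cenpf*) to 0.40 (*Smc4*), and most lie left of 0.

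**Figure D2:**
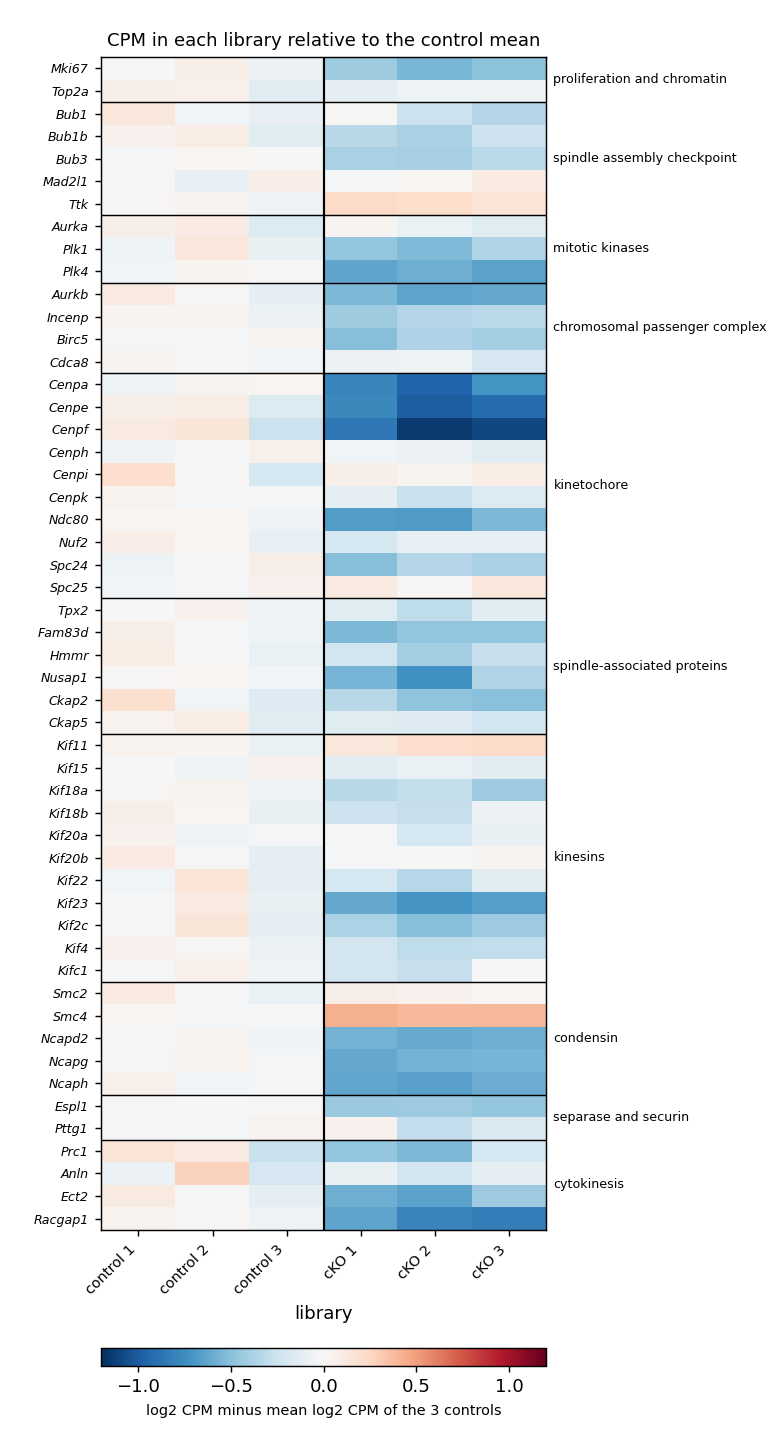
Log2 CPM of each member in each of the 6 libraries, minus the mean log2 CPM of the 3 control libraries. Blue is lower and red is higher than the control mean. The cKO columns are bluest for *Cenpf*, *Cenpe* and *Cenpa* and are red for *Smc4*, and control replicate 3 is the lowest control column in 38 of the 52 rows.

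Levels between genes are compared per kilobase of exon. In control iGCBs *Top2a* (167 CPM per kb), *Mki67* (132), *Ncapd2* (122), *Cenpa* (97.0) and *Smc4* (83.8) were the highest members, and *Anln* (6.24), *Cenpi* (6.999) and *Cenpk* (7.45) were the lowest. In cKO *Smc4* stood at 111 CPM per kb, above *Ncapd2* at 81.4, which is the reverse of their order in control. Members with high levels were found among those that fell, those that rose and those that did not pass the test.

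*Mki67* and *Top2a*, the standard markers of cycling cells, did not give the same result. *Mki67*, which coats mitotic chromosomes, had 1321, 1389.5 and 1265 CPM in the control replicates and 983, 907 and 942 CPM in the cKO replicates. All cKO libraries were below all controls, and the log2 fold change was −0.49 (SE 0.049, adjusted p = 2.62e-05, edgeR). *Top2a*, the topoisomerase that untangles sister DNA, had 911, 906 and 795 CPM in control and 804, 833 and 839 CPM in cKO. Here the groups overlapped, and the log2 fold change of −0.077 had a 95% interval of −0.20 to 0.050 (adjusted p = 0.294). Control replicate 3 was the lowest of the 6 libraries for *Top2a*, and without it the value was −0.14 (adjusted p = 0.0357).

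Of the 5 spindle assembly checkpoint genes, 2 fell, 0 rose and 3 did not pass, with a median log2 fold change of −0.19. The 40% lower stand beside 24.5% lower and 24.1% higher among all genes tested. *Bub3*, which brings the checkpoint kinases to unattached kinetochores, had 145, 149 and 146 CPM in control and 112, 111 and 118 CPM in cKO, a log2 fold change of −0.37 (SE 0.050, adjusted p = 0.000177). *Bub1b*, encoding BubR1 of the mitotic checkpoint complex, had 223, 228 and 194 CPM in control and 171, 164 and 180.2 CPM in cKO, and its log2 fold change was −0.33 (SE 0.068, adjusted p = 0.00259). For both genes the groups did not overlap, and control replicate 3 was the lowest control for *Bub1b*. *Bub1*, the kinase that marks the inner centromere, had a log2 fold change of −0.19 with overlapping groups (adjusted p = 0.118). *Ttk*, the kinase that starts checkpoint signaling, lay the other way, at 23.2, 23.4 and 22.1 CPM in control and 26.8, 26.4 and 25.6 CPM in cKO. Its groups were apart, but the log2 fold change of 0.20 (95% interval 0.017 to 0.38) did not pass (adjusted p = 0.0678). *Mad2l1*, which inhibits CDC20 in the same complex as BubR1, was at 74.7 ± 4.61 CPM in control and 76.6 ± 2.87 CPM in cKO (SD, n = 3 each), with a 95% interval of −0.10 to 0.17 for its log2 fold change.

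Among the mitotic kinases, *Plk4* and *Plk1* fell and *Aurka* did not pass. *Plk4*, which starts centriole duplication, had 72.8, 76.0 and 74.4 CPM in control and 47.9, 49.6 and 47.6 CPM in cKO. The libraries within each group were close, and the log2 fold change was −0.62 (SE 0.058, adjusted p = 1.74e-05). *Plk1*, which acts from mitotic entry to cytokinesis, had 81.9, 93.2 and 79.9 CPM in control and 61.6, 58.6 and 65.9 CPM in cKO, without overlap and with a log2 fold change of −0.45 (SE 0.073, adjusted p = 0.000563). *Aurka*, the centrosomal Aurora kinase, had 54.7, 56.1 and 46.5 CPM in control and 53.4, 49.4 and 47.2 CPM in cKO, with overlapping groups and a 95% interval of −0.26 to 0.13.

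The chromosomal passenger complex corrects faulty kinetochore attachments and later acts at the midzone. Of its 4 subunits, 3 fell, 0 rose, and in all 4 the cKO libraries lay below the control libraries. Over all genes tested, 24.5% were lower, 24.1% were higher and 29.5% lay below without overlap. *Aurkb*, its catalytic subunit, had 129.7, 122 and 111 CPM in control and 83.0, 78.1 and 79.0 CPM in cKO, a log2 fold change of −0.60 (SE 0.065, adjusted p = 4.59e-05). *Birc5* (survivin), which reads a mark on centromeric histones, had 111, 112 and 115 CPM in control and 78.9, 87.2 and 85.0 CPM in cKO, with a log2 fold change of −0.43 (SE 0.056, adjusted p = 0.000155). *Incenp*, the scaffold, had 243, 245 and 226 CPM in control and 177, 186 and 189.9 CPM in cKO, a log2 fold change of −0.37 (SE 0.052, adjusted p = 0.000244). Of these 3 genes, the kinase had the lowest ratio to control. *Cdca8* (borealin), which joins *Birc5* and *Incenp* in the centromere-targeting module, had 137, 134 and 130.5 CPM in control and 127, 128 and 116 CPM in cKO. Its log2 fold change of −0.11 did not pass (95% interval −0.24 to 0.012, adjusted p = 0.124).

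Kinetochore genes held the largest decreases of the whole list and also 5 members that did not pass. Of the 10 genes, 50% were lower, against 24.5% of all genes tested. *Cenpf*, a large protein of the outer corona that binds microtubules and dynein regulators, had 117, 121 and 91.6 CPM in control and 60.4, 49.3 and 51.1 CPM in cKO. Its highest cKO library was well under its lowest control library, and it stood at 48.7% of control (log2 fold change −1.04, SE 0.11, adjusted p = 3.99e-05, edgeR). *Cenpe*, the kinesin that moves chromosomes to the spindle equator, had 183, 185 and 156 CPM in control and 102, 87.8 and 91.4 CPM in cKO, a log2 fold change of −0.90 (SE 0.080, adjusted p = 1.33e-05). For both genes control replicate 3 was the lowest control, and with each library left out in turn *Cenpf* stayed between −1.15 and −0.97 and *Cenpe* between −0.97 and −0.85. *Cenpa*, the histone H3 variant that defines the centromere, had 153, 163 and 162 CPM in control and 92.4, 82.4 and 96.8 CPM in cKO. The groups were far apart, with a log2 fold change of −0.81 (SE 0.067, adjusted p = 8.57e-06).

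The 4 subunits of the NDC80 complex, the main microtubule coupler of the outer kinetochore, gave unequal values. *Ndc80* had 71.0, 70.8 and 67.9 CPM in control and 43.9, 43.7 and 48.1 CPM in cKO, a log2 fold change of −0.63 (SE 0.065, adjusted p = 3.48e-05). Its dimer partner *Nuf2* had 57.2, 55.3 and 50.6 CPM in control and 46.8, 50.7 and 50.7 CPM in cKO, and the log2 fold change of −0.14 did not pass (95% interval −0.30 to 0.025, adjusted p = 0.147). In the other dimer, *Spc24* had 47.2, 49.2 and 51.8 CPM in control and 34.6, 38.7 and 37.7 CPM in cKO, a log2 fold change of −0.42 (SE 0.077, adjusted p = 0.00133). *Spc25* had 29.96, 30.4 and 31.9 CPM in control and 33.1, 31.0 and 33.8 CPM in cKO, and its log2 fold change of 0.086 did not pass (95% interval −0.091 to 0.26, adjusted p = 0.403). Thus 1 subunit of each dimer fell, and the intervals of *Ndc80* (−0.77 to −0.48) and *Nuf2* did not meet, nor did those of *Spc24* (−0.59 to −0.24) and *Spc25*. The log2 ratio of *Nuf2* over *Ndc80* was −0.31, −0.36 and −0.42 in control and 0.091, 0.21 and 0.077 in cKO, a pair chosen after its values were seen. *Cenph* (−0.076), *Cenpi* (0.053) and *Cenpk* (−0.18), subunits of the inner kinetochore network on CENP-A chromatin, did not pass, and the spread of *Cenpi* in control was wide (25.8, 22.6 and 19.4 CPM).

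**Figure D3:**
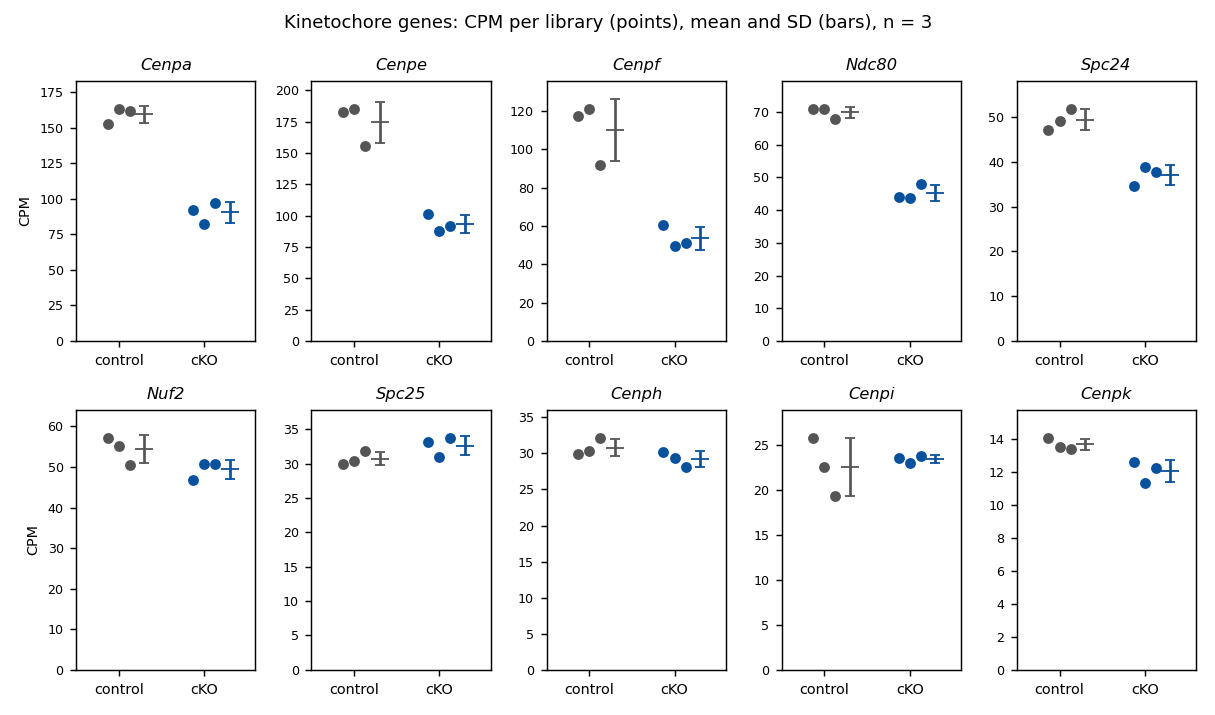
CPM of the 10 kinetochore members in each library (points), with mean and SD (bars, n = 3 per group), each axis from 0. *Cenpa*, *Cenpe*, *Cenpf*, *Cenpk*, *Ndc80* and *Spc24* show cKO points under all control points, while *Nuf2*, *Spc25*, *Cenph* and *Cenpi* overlap.

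All 6 spindle-associated genes were lower in cKO without overlap between the groups, though none by more than 1.5-fold. Among all genes tested, 24.5% were lower and 29.5% lay below without overlap. *Nusap1*, which bundles microtubules around chromosomes, had 148, 149 and 143 CPM in control and 99.6, 88.7 and 114 CPM in cKO, a log2 fold change of −0.54 (SE 0.083, adjusted p = 0.000405). The cKO libraries of *Nusap1* were spread more widely than the controls. *Fam83d*, which recruits casein kinase to the spindle, had 26.4, 24.9 and 24.3 CPM in control and 17.4, 18.3 and 18.1 CPM in cKO (log2 fold change −0.49, SE 0.088, adjusted p = 0.00104). *Ckap2*, a microtubule stabilizer, had 31.4, 26.8 and 24.6 CPM in control and 21.8, 19.6 and 19.3 CPM in cKO (log2 fold change −0.45, SE 0.11, adjusted p = 0.00667). The cKO libraries of both were close together. *Hmmr*, a spindle pole adaptor, had a log2 fold change of −0.31 (adjusted p = 0.00338). The changes of *Tpx2*, the activator of Aurora A, and *Ckap5*, a microtubule polymerase, were small at −0.19 (adjusted p = 0.0210) and −0.18 (adjusted p = 0.0406), and leaving out single libraries raised the adjusted p to as much as 0.0806 and 0.123.

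Of the 11 kinesins, 6 fell, 1 rose and 4 did not pass, with a median log2 fold change of −0.20. These are 54.55% lower and 9.09% higher, against 24.5% and 24.1% of all genes tested. *Kif23*, the motor of centralspindlin, had 115, 126 and 110.1 CPM in control and 76.3, 71.6 and 73.8 CPM in cKO, a log2 fold change of −0.66 (SE 0.063, adjusted p = 2e-05). *Kif2c* (MCAK), which takes microtubules apart at centromeres, had 45.5, 51.0 and 42.7 CPM in control and 35.5, 32.4 and 34.2 CPM in cKO (log2 fold change −0.45, SE 0.087, adjusted p = 0.00184). *Kif18a*, which damps chromosome oscillation, had 34.3, 35.0 and 32.6 CPM in control and 27.0, 27.9 and 25.1 CPM in cKO (log2 fold change −0.35, SE 0.082, adjusted p = 0.00548). In these 3 genes every cKO library was below every control library. The chromokinesins *Kif4* and *Kif22* had log2 fold changes of −0.28 (adjusted p = 0.00214) and −0.23 (adjusted p = 0.0357). *Kif18b* had −0.20 (adjusted p = 0.0434) with overlapping groups, and it lost the call with DESeq2 (adjusted p = 0.0572), and *Kif22* lost it with *Xist* level as a factor (adjusted p = 0.0654).

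*Kif11* (Eg5), the tetrameric motor that pushes the spindle poles apart, was the kinesin that rose. It had 304, 303 and 279 CPM in control and 325, 339 and 346 CPM in cKO, with all cKO libraries above all controls and a log2 fold change of 0.19 (SE 0.053, adjusted p = 0.0137). Without control replicate 3, its lowest library, the value was 0.15 and the adjusted p was 0.0538. *Kif15*, which shares the work of *Kif11* in keeping the spindle bipolar, had a log2 fold change of −0.11 (adjusted p = 0.102). *Kif20b*, *Kif20a* and *Kifc1*, a motor of the spindle poles, did not pass, at 67.6 ± 4.73 and 67.7 ± 1.04 CPM, 101 ± 3.09 and 94.1 ± 6.35 CPM, and 76.3 ± 3.19 and 68.3 ± 7.15 CPM in control and cKO (SD, n = 3 each). *Kif20a* brings the passenger complex to the midzone where *Kif23* also acts, and their log2 ratio was −0.14, −0.36 and −0.14 in control and 0.39, 0.29 and 0.37 in cKO. *Kif20a* shares exon sequence with *Cdc23* on the opposite strand. *Cdc23*, named for this after its value was seen, was higher in cKO (0.27, adjusted p = 0.00466, edgeR). The part of *Cdc23* reads in this ratio was not tested.

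Condensin I is a ring of the ATPases SMC2 and SMC4 closed by the kleisin NCAPH, with NCAPD2 and NCAPG bound to it. Its 3 non-SMC subunits fell by nearly the same amount, while *Smc4* rose and *Smc2* did not pass. *Ncapd2* had 567, 580.3 and 551 CPM in control and 382, 371 and 378 CPM in cKO, a log2 fold change of −0.59 (SE 0.046, adjusted p = 6.33e-06, edgeR). *Ncaph* had 131, 123 and 124 CPM in control and 81.8, 80.2 and 83.2 CPM in cKO, a log2 fold change of −0.62 (SE 0.052, adjusted p = 9.1e-06). *Ncapg* had 139, 145 and 138 CPM in control and 91.5, 94.6 and 95.1 CPM in cKO, a log2 fold change of −0.58 (SE 0.050, adjusted p = 1.11e-05). These 3 genes stood at 66.6%, 64.9% and 66.7% of control. At the 1.5-fold cutoff *Ncapd2* lay just past it and *Ncapg* just short of it.

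*Smc4* had 366, 359 and 360.0 CPM in control and 485, 473 and 474 CPM in cKO, with a wide gap between the groups and little spread within them. Its log2 fold change was 0.40 (SE 0.045, adjusted p = 5.27e-05), the highest of the 52 members. *Smc2* had 244, 224 and 215 CPM in control and 238, 235 and 232 CPM in cKO, with the cKO libraries inside the control range and a 95% interval of −0.077 to 0.17. The log2 ratio of *Smc4* over *Ncapd2* was −0.63, −0.69 and −0.61 in control and 0.34, 0.35 and 0.33 in cKO, a shift of 0.99. The ratio of *Smc4* over *Smc2*, obligate partners, shifted by 0.35. These ratios do not depend on library scaling and were chosen after the values were seen. SMC2 and SMC4 are also the core of condensin II, whose 3 own subunits were measured as well: *Ncapg2* (0.18, adjusted p = 0.00975), *Ncaph2* (−0.66, adjusted p = 1.09e-05) and *Ncapd3* (−0.22, adjusted p = 0.00676), which were singled out for this reason after their values were seen.

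**Figure D4:**
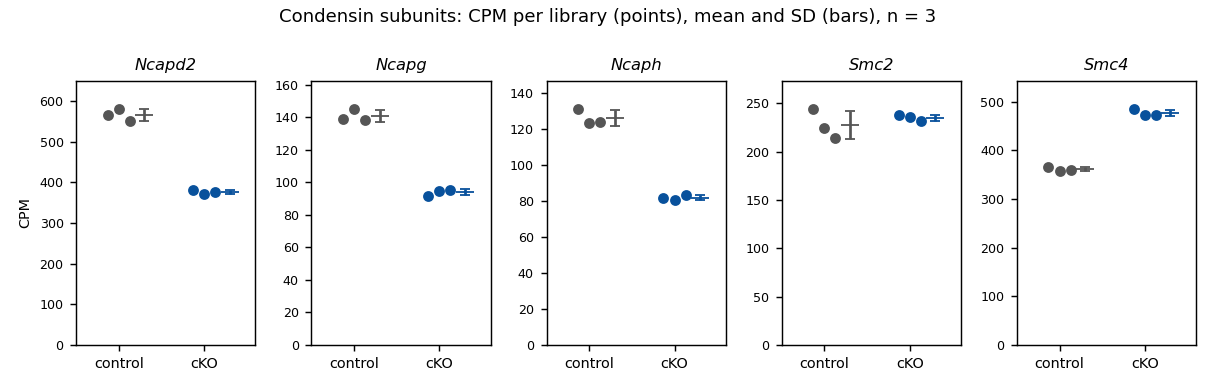
CPM of the 5 condensin members in each library (points), with mean and SD (bars, n = 3 per group), each axis from 0. The *Ncapd2*, *Ncapg* and *Ncaph* points of cKO lie under those of control, those of *Smc2* overlap and those of *Smc4* lie above.

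Separase cleaves cohesin at anaphase and securin holds it inactive. *Espl1* (separase) had 142, 143 and 144 CPM in control and 105, 106 and 104 CPM in cKO, with very little spread and a log2 fold change of −0.45 (SE 0.047, adjusted p = 3.85e-05). *Pttg1* (securin) had 15.9, 16.0 and 16.6 CPM in control and 16.7, 13.2 and 14.3 CPM in cKO, with overlapping groups and a 95% interval of −0.39 to 0.12 (adjusted p = 0.371).

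Of the 4 cytokinesis genes, 3 fell, 0 rose and *Anln* did not pass, and the median log2 fold change was −0.48. Thus 75% were lower, against 24.5% of all genes tested. *Racgap1*, the GTPase-activating subunit of centralspindlin and partner of *Kif23*, had 201, 197 and 188 CPM in control and 126, 113 and 111 CPM in cKO. The groups were far apart and the log2 fold change was −0.74 (SE 0.062, adjusted p = 8.91e-06). *Ect2*, the exchange factor that centralspindlin brings to the midzone to activate RhoA, had 109, 101 and 93.3 CPM in control and 67.1, 64.5 and 74.7 CPM in cKO, a log2 fold change of −0.56 (SE 0.075, adjusted p = 0.000174). *Prc1*, the crosslinker of midzone microtubules, had 89.3, 86.6 and 66.8 CPM in control and 57.7, 55.3 and 69.5 CPM in cKO. Its groups overlapped, since cKO replicate 3 was above control replicate 3, and the log2 fold change of −0.41 (SE 0.12, adjusted p = 0.0145) lost its call with single libraries left out (adjusted p up to 0.0705). *Anln* (anillin), the scaffold of the contractile ring, had 27.1, 34.4 and 24.7 CPM in control and 26.8, 24.3 and 26.3 CPM in cKO, with control replicate 2 well above the other libraries and a 95% interval of −0.43 to 0.12. The pair *Racgap1* and *Kif23*, which form a single complex, and *Ect2*, which they recruit, stood at 59.7%, 63.2% and 68.0% of control.

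**Figure D5:**
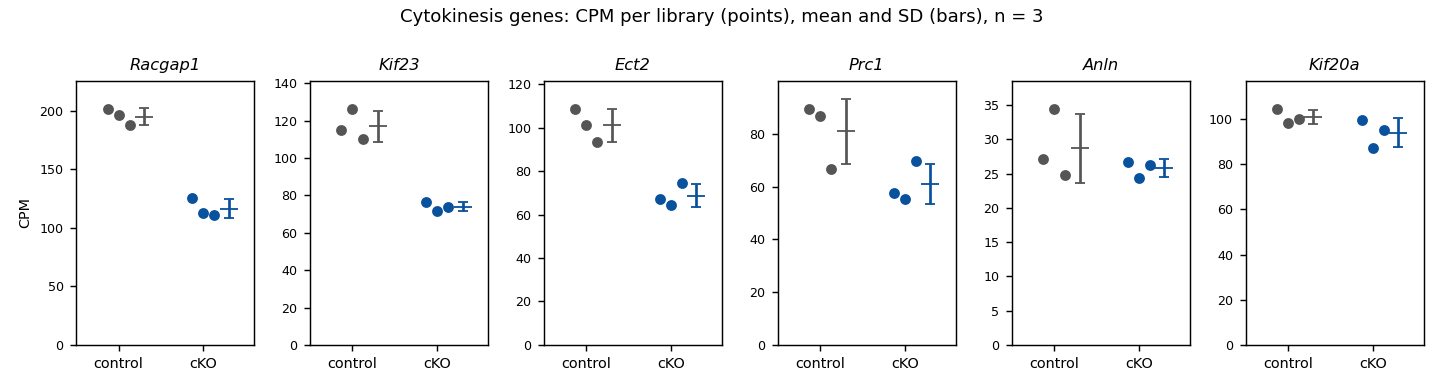
CPM of the 4 cytokinesis members and of the midzone kinesins *Kif23* and *Kif20a* in each library (points), with mean and SD (bars, n = 3 per group), each axis from 0. *Racgap1*, *Kif23* and *Ect2* show cKO points under all control points, while *Prc1*, *Anln* and *Kif20a* overlap.

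*Plk1*, *Nusap1*, *Kif20a*, *Kif4*, *Ncapg* and *Prc1* share exon sequence with a gene on the opposite strand in GENCODE M21, and whether the counting used strand was not given in the sources used here. Without strand, reads of the partner gene and of these 6 genes cannot be told apart. *Cenpi* and *Kif4* are X-linked. On GRCm38.p6 (RefSeq) genes described in most detail lie at chr1:189640606-189688107 (*Cenpf*), chr3:135212563-135273540 (*Cenpe*), chr5:30666877-30674837 (*Cenpa*), chr15:99620496-99651656 (*Racgap1*), chr9:61917277-61946810 (*Kif23*), chr6:125168007-125192100 (*Ncapd2*) and chr3:69004738-69034623 (*Smc4*).

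Transcript use was examined for the 20 members with at least 2 RefSeq transcripts past the filter. Of these, 0 changed at an adjusted p under 0.05 (edgeR diffSpliceDGE, Simes p per gene), against 1.37% of the 2990 genes tested, and 1 (*Prc1*) had an unadjusted p under 0.05 (adjusted p = 0.403). The *Prc1* transcript with the smallest p, NM_001285997 (unadjusted p = 0.00473, log2 fold change relative to the gene −3.17), was a minor one, with 0, 0 and 6 counts in cKO and 72, 27 and 98 counts in control replicates 1, 2 and 3. It was at most 0.204% of the gene's count in the cKO libraries and 0.793% to 3.57% in the control libraries, without overlap. The shares of the main *Prc1* transcripts varied widely between libraries: NM_145150 made up 45.6%, 72.1% and 51.0% of the gene in cKO and 64.4%, 53.8% and 62.8% in control. With this spread, a p that misses the threshold does not show that transcript use was alike.

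A further 103 mitotic genes were examined as a wider list, all of which passed the filter. Of these, 43 were lower and 23 were higher (9 and 2 beyond 1.5-fold), with a median log2 fold change of −0.092. These are 41.8% lower and 22.3% higher, against 24.5% and 24.1% of all genes, and the 8.74% lower beyond 1.5-fold stand against 10.6%. The 7 other cytokinesis genes held 5 lower and 0 higher, the 28 other kinetochore and centromere genes 9 lower and 2 higher, and the 32 spindle, centrosome and augmin genes 14 lower and 6 higher. Genes of cohesin and its protectors were split, with 6 lower and 6 higher of 14, and so were the other checkpoint and anaphase-promoting complex genes, with 7 lower and 8 higher of 19. The largest decreases were those of *Mad2l1bp*, which counters MAD2 (−1.02, adjusted p = 4.56e-05), *Hjurp*, the chaperone that deposits CENP-A (−0.91, adjusted p = 2.45e-06), and *Nsl1* of the MIS12 complex (−0.84, adjusted p = 1.65e-05). *Hjurp* had 459.5, 442 and 411 CPM in control and 241, 237 and 222 CPM in cKO, the same direction as its client *Cenpa*. The largest increases were those of the kinase *Nek6* (0.71, adjusted p = 0.00119) and of the cohesin genes *Stag1* (0.62, adjusted p = 1.56e-05) and *Pds5b* (0.55, adjusted p = 1.62e-05).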

How the data were processed

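Poly(A) RNA was sequenced from day 3 YFP+ iGCBs of cKO and control mice, with 3 libraries in each group. The authors trimmed and aligned the reads with HISAT2, quantified them with StringTie (build mm10 per the submitters' processing notes) and deposited estimated counts for genes and for RefSeq transcripts, extracted by prepDE. Versions were not given in the sources used here. The counts were whole, not normalized, and rounding changed nothing. StringTie assigns reads shared by overlapping transcripts by a model, which can move counts between them. The general culture protocol gives a longer culture than the RNA-seq methods and sample titles, which give 3 days.

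The fit used edgeR 4.0.16 in R 4.3.3 over all genes: filterByExpr (minimum count 10), TMM, glmQLFit and glmQLFTest of cKO against control without covariates, and Benjamini-Hochberg adjustment over 13296 genes. A call needed an adjusted p under 0.05. A count of 3 was 0.0659 to 0.0768 CPM, a floor that covers counting error only. Transcript use was tested with diffSpliceDGE. Locations and promoters came from GENCODE M21 and RefSeq on GRCm38.p6, matched by symbol. The scripts were first run on simulated counts, in which the transcript test missed most changes at the spread of these transcripts. DESeq2 1.42.0, other scalings and filters, a replicate block, *Xist* level and leaving out libraries were alternatives.

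Values in each library are given for members past 1.5-fold and for the 3 with the largest absolute change in each group. Those of *Smc4*, *Smc2*, *Kif11*, *Cdca8*, *Nuf2*, *Spc24*, *Spc25*, *Cenpi*, *Anln* and of the ratios, and the group means of *Mad2l1*, *Kif20a*, *Kif20b* and *Kifc1*, were added after their values were seen. From the wider lists the 3 largest changes in each direction are named. A germinal center marker is not reported here. The members and lists were chosen with earlier results of these data known.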

Additional observations from a re-analysis of the deposited data

How the results depend on the processing

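The count of lower members was between 29 and 32 and that of higher members was 2 under DESeq2's size factors in edgeR, upper-quartile or total-count scaling, DESeq2, no filter, at least 10 counts in every library, immunoglobulin genes left out (1 gene), counts divided by 2, the replicate block and *Xist* level as a factor. A test against 1.5-fold left 4 lower and 0 higher. With each library left out in turn, 27 to 33 members were lower and 1 to 2 were higher, and 9 to 13 were lower beyond 1.5-fold. The count of higher members was 1 without control replicate 3. The median log2 fold change was between −0.36 and −0.28 when libraries were left out. No member call turned its direction. Estimates near 0 changed sign: *Kif20b* was −7e-04 with counts divided by 2 and −0.049 (without control replicate 3) to 0.051 with libraries left out, and was also negative without cKO replicate 3 (−0.011) and without control replicate 2 (−0.0013). *Mad2l1* was −0.019 (without control replicate 2) to 0.078, and *Cenpi* was −0.045 (without control replicate 3) to 0.16. The cause was not tested.

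Calls of *Kif18b*, *Ckap5*, *Kif22*, *Tpx2*, *Prc1* and *Kif11* were lost under at least 1 alternative. Transcript use gave 0 to 1 members when libraries were left out, with *Cenpk* called without control replicate 3. The cKO and control libraries share replicate numbers, but deviations of same-numbered libraries correlated at only 0.0085, 0.084 and 0.13, and not every library correlated best with its own number. With 3 libraries per group, these values cannot show whether same-numbered libraries came from a shared experiment. The paper compared cell counts, death and surface proteins of control and cKO iGCBs with a paired t test. With the replicate number as a block, 31 members were lower and 2 higher, *Bub1* was called (adjusted p = 0.0275) and *Kif18b* and *Kif22* were not. The lowest count of a member in a library was 509 (*Cenpk*). The parts of depth and of the number of libraries in the members that did not pass were not tested.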

Other observations

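Genes that act before mitosis were set beside the members, as values with no test between the lists. Of 40 DNA replication genes, 7 were lower and 13 were higher in cKO (edgeR, adjusted p under 0.05), with a median log2 fold change of 0.038. These are 17.5% and 32.5%, against 24.5% lower and 24.1% higher among all genes tested. *Cdt1*, which licenses origins, had 199.8, 193 and 202 CPM in control and 104, 117 and 108 CPM in cKO (−0.86, adjusted p = 2.9e-06), and *Pole2* (−0.78, adjusted p = 0.000174) and *Orc5* (−0.58, adjusted p = 0.00114) also fell. *Orc2*, another origin recognition subunit, had 53.8, 46.7 and 52.3 CPM in control and 116, 135 and 126 CPM in cKO (1.30, adjusted p = 1.58e-06), and *Pold2* (0.57, adjusted p = 0.000191) and *Orc4* (0.51, adjusted p = 0.000411) also rose. Subunits of the origin recognition complex thus moved in both directions.

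Of 39 cyclins, cyclin-dependent kinases and their regulators, 19 were lower and 9 were higher, with a median of −0.21. These are 48.7% and 23.1%, so that the share higher was close to the 24.1% of all genes and the share lower was above the 24.5%. The largest decreases were those of *Cdc25b*, the phosphatase that activates CDK1 at mitotic entry (293, 296 and 257 CPM in control and 104, 89.1 and 92.2 CPM in cKO, −1.57, adjusted p = 6.57e-07), *Cdkn3* (−1.35, adjusted p = 6.68e-05) and the mitotic cyclin *Ccnb2* (131, 130.2 and 120.2 CPM in control and 56.8, 57.1 and 57.7 CPM in cKO, −1.15, adjusted p = 6.57e-07). The largest increases were those of *Mybl2*, the B-Myb subunit of the complex that activates CHR promoters (111, 108 and 124 CPM in control and 273, 289 and 268 CPM in cKO, 1.27, adjusted p = 7.34e-07), *Cdk6* (1.06, adjusted p = 1.47e-06) and *Cdc25a*, the phosphatase of S phase entry (0.83, adjusted p = 3.34e-05). Of the CDC25 phosphatases, *Cdc25a* rose and *Cdc25b* and *Cdc25c* (−0.63, adjusted p = 0.00300, named after its value was seen) fell, each without overlap between the groups.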
